A study of Homo sapiens with 8 samples.

Results

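The unfolded protein response and the ATF4 stress response were followed through 37 named genes, out of 17169 genes tabulated for the human line NCI-H146 and 56965 for NCI-H1688. The genes were taken by name and were chosen for what they are known to do, with earlier results of these data known. They comprise 5 sensors and transcription factors of the endoplasmic reticulum, 13 of its chaperones and folding enzymes, 4 genes of its degradation pathway, 4 transcription factors of the ATF4 branch, 6 effectors of that branch and 5 amino acid genes that ATF4 controls. All 37 had a row in both tables and all 37 passed the filter on low values in each line.

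The study asked how depletion of the transcription factor KLF9, one of the Krüppel-like family, alters RNA levels in cells labelled small cell lung cancer. Each line was infected with lentivirus that expressed a short hairpin RNA (shRNA), labelled either as a control or as directed at KLF9, and every group, controls included, was then kept in puromycin for 2 weeks to give stable lines. Each of the 4 groups had 2 libraries, called biological replicates in the labels, and the labels do not say whether these were separate infections. The labelled controls of NCI-H146 are replicates 2 and 3, and all other groups are replicates 1 and 2. No hairpin sequence was used here, and each group of 2 libraries carries 1 label for its hairpin, so an effect of the hairpin itself and an effect of KLF9 cannot be told apart.

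Proteins that enter the secretory pathway fold in the endoplasmic reticulum with the help of chaperones such as BiP, which HSPA5 encodes. When unfolded proteins accumulate, the sensors IRE1α (ERN1), PERK (EIF2AK3) and ATF6 respond: IRE1α splices XBP1 mRNA, ATF6 is cut to release a transcription factor, and PERK phosphorylates the translation factor eIF2α. The ATF6 and XBP1 arms raise chaperones and the genes that carry misfolded proteins out for degradation, while eIF2α phosphorylation favours translation of ATF4, which raises amino acid synthesis and transport, DDIT3 (CHOP) and PPP1R15A (GADD34). ATF4 is also induced by amino acid shortage through another eIF2α kinase, so chaperones and amino acid genes can move apart.

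The promoters of 6 members are shown because they carry the best known elements of these arms, and their values are given below. The endoplasmic reticulum stress element was searched as CCAAT, any 9 bases and CCACG, its second form as ATTGG, any 1 base and CCACG, the unfolded protein response element as TGACGTGG and the element bound by C/EBP and ATF factors as TGATGNAA, on both strands of the 250 bases before each RefSeq gene start (GRCh38.p14). The first element was in 5 of the 35 member promoters found in RefSeq (XBP1, HSPA5, HSP90B1, CRELD2 and CALR) and in 0.0806% of 27305 promoters of the same length. The second form was in 3 (HYOU1, SDF2L1 and HERPUD1) against 0.0513% of all promoters, and TGATGNAA was in 3 (HERPUD1, CHAC1 and ASNS) against 3.19%. The unfolded protein response element was in 1, HYOU1, where it overlaps a match of the second form, against 0.667% of all promoters. PDIA3 and SLC7A11 were not among the promoters searched. The members were chosen as known genes of these responses and the elements as known for the same arms, so these shares are not an independent test. The bases CCACG alone end the first 2 elements and, read on the other strand, lie in the third. The sequences run 5′ to 3′ on the gene's own strand and end 1 base before the RefSeq start, and capitals mark the matches. In GENCODE 29 the gene begins inside the window shown for HERPUD1, XBP1, SDF2L1 and ASNS, begins upstream of it for CRELD2 and downstream of it for HSPA5. A match is a stretch of letters, and binding was not measured.
HERPUD1, chr16:56931892-56932141, plus strand: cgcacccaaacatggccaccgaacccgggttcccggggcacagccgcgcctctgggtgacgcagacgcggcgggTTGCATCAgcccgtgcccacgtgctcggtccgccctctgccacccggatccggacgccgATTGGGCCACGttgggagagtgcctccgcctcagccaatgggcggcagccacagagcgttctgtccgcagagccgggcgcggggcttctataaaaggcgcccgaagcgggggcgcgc
XBP1, chr22:28800570-28800819, minus strand: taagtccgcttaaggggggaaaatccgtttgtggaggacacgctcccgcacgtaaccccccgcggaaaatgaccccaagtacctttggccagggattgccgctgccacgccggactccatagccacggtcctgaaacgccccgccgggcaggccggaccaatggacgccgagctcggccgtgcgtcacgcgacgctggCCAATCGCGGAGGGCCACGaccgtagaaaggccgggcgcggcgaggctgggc
HSPA5, chr9:125241344-125241593, minus strand: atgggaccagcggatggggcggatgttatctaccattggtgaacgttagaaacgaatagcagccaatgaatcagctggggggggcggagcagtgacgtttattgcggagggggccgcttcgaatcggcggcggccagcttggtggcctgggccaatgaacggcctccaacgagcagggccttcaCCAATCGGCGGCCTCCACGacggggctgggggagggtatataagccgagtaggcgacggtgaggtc
CRELD2, chr22:49918384-49918633, plus strand: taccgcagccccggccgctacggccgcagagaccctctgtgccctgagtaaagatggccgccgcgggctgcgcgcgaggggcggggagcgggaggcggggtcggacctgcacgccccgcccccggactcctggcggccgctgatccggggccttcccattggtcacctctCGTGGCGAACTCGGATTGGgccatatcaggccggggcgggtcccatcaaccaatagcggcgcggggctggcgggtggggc
SDF2L1, chr22:21642052-21642301, plus strand: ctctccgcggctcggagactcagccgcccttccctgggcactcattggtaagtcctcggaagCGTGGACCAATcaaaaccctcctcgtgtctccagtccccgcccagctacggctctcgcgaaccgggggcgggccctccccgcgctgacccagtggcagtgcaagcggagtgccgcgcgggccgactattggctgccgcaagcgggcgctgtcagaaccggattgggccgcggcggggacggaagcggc
ASNS, chr7:97872409-97872658, minus strand: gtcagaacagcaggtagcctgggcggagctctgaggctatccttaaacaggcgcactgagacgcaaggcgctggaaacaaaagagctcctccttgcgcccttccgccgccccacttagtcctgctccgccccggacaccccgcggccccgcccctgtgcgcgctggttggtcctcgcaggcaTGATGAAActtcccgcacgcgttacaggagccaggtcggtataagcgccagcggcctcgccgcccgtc
HERPUD1 holds the second element 117 to 107 bases and TGATGNAA 176 to 169 bases before its start, the latter on the other strand. The first element lies 52 to 34 bases before the start in XBP1, 66 to 48 in HSPA5 and 80 to 62 in CRELD2, in CRELD2 on the other strand. SDF2L1 holds the second element at 188 to 178 bases on the other strand, and ASNS holds TGATGNAA at 68 to 61 bases.

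The NCI-H146 libraries held from 15406264 to 16109803 counts, while the NCI-H1688 values are TPM, which keep no depth. The targeted gene followed its label in NCI-H146 and not in NCI-H1688. In NCI-H146, KLF9 was at 66.97 and 61.9 CPM in the controls and 24.9 and 32.3 CPM in the knockdown libraries (log2 fold change -1.17, SE 0.283, edgeR adjusted p = 0.0131). CPM are counts scaled by library totals after TMM adjustment. In NCI-H1688 it was at 0.298 and 0.644 TPM in the controls and 1.95 and 1.60 TPM in those labelled KLF9 knockdown (log2 fold change 0.92, SE 0.279, limma adjusted p = 0.0952). Transcripts encoded in mitochondria took 8.56% of the counts in NCI-H146 knockdown replicate 1 and 0.897% to 1.20% in the other 3 libraries, and 14.3% to 17.7% of the TPM in NCI-H1688. Of 6 neuroendocrine markers that typify small cell lung cancer, 5 were tabulated in NCI-H146, and INSM1 was not analysed there. Their summed level was 6.74 and 8.26 CPM in the controls and 15.4 and 27.3 CPM in the knockdown. DLL3, SYP and CHGA carried this difference, while NEUROD1 and NCAM1 stayed under 1 CPM in every library. NEUROD1 lay lower in the knockdown, at 0.606 and 0.649 against 0.406 and 0.125 CPM. In NCI-H1688 5 of the 6 stayed under 1 TPM in every library, and NEUROD1 and INSM1 were listed at 0. The 4 epithelial markers summed to between 197 and 307 CPM in NCI-H146 and to between 1451 and 2519 TPM in NCI-H1688. The tables differ in unit and scaling, so the lines were fitted separately.

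In NCI-H146 3 of 5 sensors and transcription factors of the endoplasmic reticulum, 3 of 4 degradation genes, 1 of 4 ATF4 branch factors and 2 of 6 effectors were called lower in the knockdown, beside 2 of 13 chaperones and 1 of 5 amino acid genes. Of the 37 genes, 12 were called lower (32.4%) and 0 higher at an adjusted p under 0.05 in edgeR's quasi-likelihood test, where 9.12% of the 13129 genes tested were called lower and 8.01% higher. At an unadjusted p under 0.05 there were 18, beside 4411 of the 13129 genes tested. DESeq2 and limma-voom also called 12 lower and 0 higher. In 19 genes both knockdown libraries lay below both controls (51.4%, against 31.9% of all genes), in 2 they lay above both (5.41%, against 30.6%) and in 16 the groups overlapped (62.5% of all genes had groups apart in either direction). The median log2 fold change was -0.49 over the 37 genes and 0.01 over all genes tested. Without control replicate 2 all of the 12 calls but that of PPP1R15A were lost, in a fit that called few genes of any kind. That fit holds 1 control library, so a lost call does not show that control replicate 2 alone carried the difference. Against control replicate 3 alone, the log2 ratio of the knockdown mean in the 12 genes ran from -2.49 (PPP1R15A) to -0.64 (XBP1). Without control replicate 3 the calls of CREB3L2 and SLC7A11 were lost. Without knockdown replicate 1, which has the high mitochondrial share, 14 members were called lower and 4 higher, in a fit that called 2438 of 13547 genes lower and 2588 (19.1%) higher. Without knockdown replicate 2 the count was 17, all lower, where 11.2% of all genes were called lower. These last 2 fits hold 1 knockdown library each, so their calls do not show that the knockdown libraries agree. RNA of whole cultures was measured, so fewer cells with a transcript and less of it per cell cannot be told apart.

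**Figure D1:**
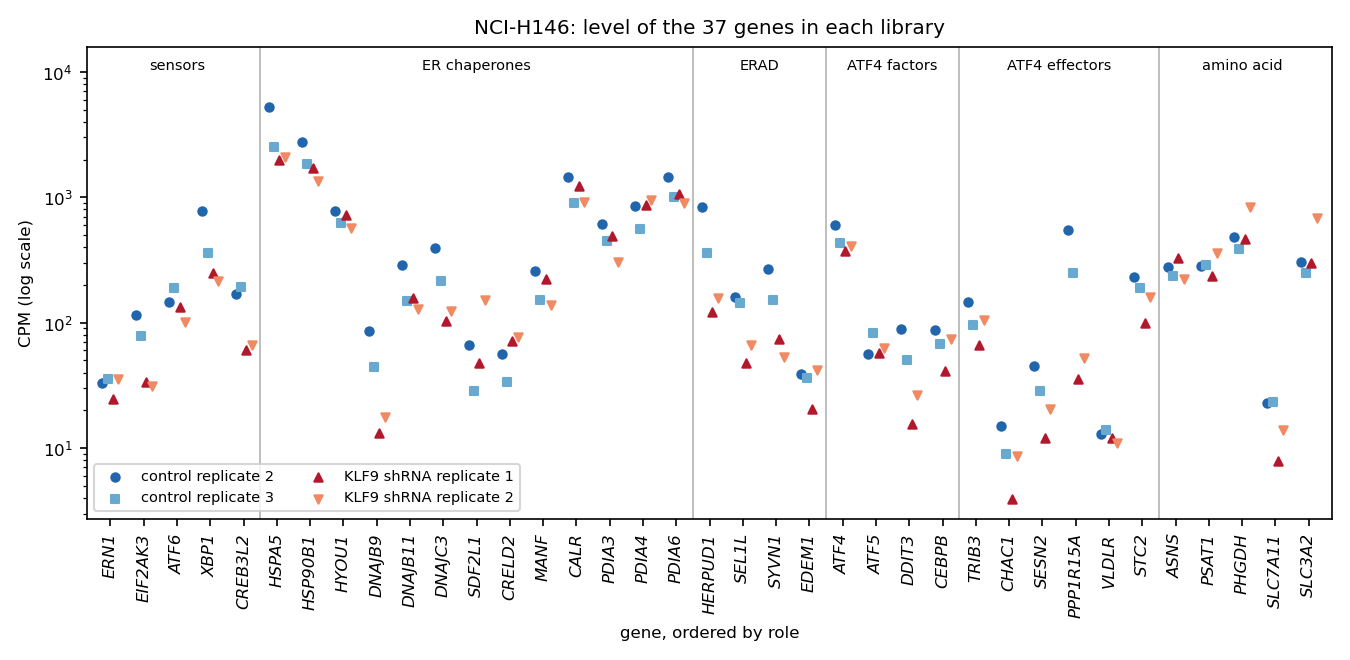
Level of each of the 37 genes in the 4 NCI-H146 libraries, in CPM on a log axis, ordered by role. PPP1R15A, HERPUD1 and DNAJB9 have the lowest ratios of the knockdown mean to the control mean, and control replicate 2 is the highest library for most chaperones.

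PPP1R15A, the eIF2α phosphatase subunit GADD34 that ends the translational arm, had the lowest fold change of the 37 genes. It was at 549 and 248 CPM in control replicates 2 and 3 and at 35.5 and 52.7 CPM in the knockdown, so every control library was above every knockdown library. The fall was 9.04-fold on the means, from 399 ± 213 to 44.1 ± 12.2 CPM (SD, n = 2 each), with a log2 fold change of -3.18, an SE of 0.383 and an edgeR adjusted p of 0.000371. It was the member whose call survived the loss of any 1 library, with log2 fold changes of -3.64 to -2.46. SESN2, a stress protein that restrains the growth kinase mTORC1, was at 44.8 and 28.7 CPM in the controls and 12.1 and 20.3 CPM in the knockdown (log2 fold change -1.18, SE 0.338, edgeR adjusted p = 0.0269). Its fold change was -0.79 without control replicate 2, with an adjusted p of 0.414 in edgeR. CHAC1, which breaks down glutathione, was at 15.1 and 8.97 against 3.93 and 8.61 CPM, and STC2, a secreted glycoprotein, at 233 and 188 against 98.7 and 161 CPM. Both had groups that did not overlap but missed the threshold (edgeR adjusted p = 0.115 for each). TRIB3, a pseudokinase that damps ATF4, overlapped between the groups, and VLDLR, a lipoprotein receptor, differed little (log2 fold change -0.23, edgeR adjusted p = 0.645).

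Among the transcription factors of the ATF4 branch, DDIT3 fell and ATF4 itself did not pass the test. DDIT3, which encodes CHOP, was at 89.3 and 50.05 CPM in the controls and 15.5 and 26.4 CPM in the knockdown, with the groups apart (log2 fold change -1.73, SE 0.344, edgeR adjusted p = 0.00539). Without control replicate 2 the fold change was -1.22 and the edgeR adjusted p 0.218. ATF4 mRNA was at 606 and 433 CPM against 375 and 409.7 CPM, a log2 fold change of -0.40 (SE 0.314, edgeR adjusted p = 0.385). ATF4 is regulated largely in translation, which these libraries do not measure. CEBPB, a partner of ATF4 and CHOP, and ATF5, a relative of ATF4, overlapped between the groups, with log2 fold changes of -0.44 and -0.20.

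The degradation pathway had the lowest median log2 fold change of the 6 roles in NCI-H146, -1.56, with 3 of 4 genes called lower. HERPUD1, an endoplasmic reticulum membrane protein that gathers the degradation complex and carries both elements shown above, was at 837 and 357 CPM in the controls and 121 and 156 CPM in the knockdown. The ratio of means was 4.30 (log2 fold change -2.10, SE 0.380, edgeR adjusted p = 0.00368). SYVN1, the ubiquitin ligase HRD1, was at 266 and 153 CPM against 73.5 and 53.7 CPM (log2 fold change -1.72, SE 0.319, edgeR adjusted p = 0.00402). SEL1L, the partner that holds HRD1 together, was at 161 and 143 CPM against 48.1 and 66.96 CPM (log2 fold change -1.40, SE 0.286, edgeR adjusted p = 0.00613). SEL1L differed little between the control libraries, and its groups were far apart. EDEM1, a lectin that passes misfolded glycoproteins to the pathway, overlapped between the groups at 39.1 and 36.3 against 20.6 and 41.6 CPM. Without control replicate 2 the 3 calls were lost, with log2 fold changes of -1.33 for HERPUD1, -1.23 for SYVN1 and -1.28 for SEL1L and edgeR adjusted p-values of 0.194, 0.204 and 0.184.

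Of the 5 sensors and transcription factors, 3 fell. PERK mRNA (EIF2AK3) was at 115 and 78.0 CPM in the controls and 33.4 and 31.2 CPM in the knockdown (log2 fold change -1.58, SE 0.293, edgeR adjusted p = 0.00402). CREB3L2, a membrane-bound transcription factor related to ATF6 that raises secretory genes, was at 168 and 191 CPM against 60.8 and 66.8 CPM (log2 fold change -1.49, SE 0.276, edgeR adjusted p = 0.00402). XBP1 was at 773 and 359 CPM against 248 and 214 CPM (log2 fold change -1.29, SE 0.359, edgeR adjusted p = 0.0235). The control libraries differed more from each other in XBP1 than in CREB3L2, and all 3 genes had groups apart. ERN1, which splices XBP1, overlapped at 33.1 and 35.4 against 24.7 and 35.4 CPM, and gene counts do not show splicing of XBP1. ATF6 was at 145.7 and 191 CPM against 133 and 102 CPM and missed the threshold (log2 fold change -0.52, edgeR adjusted p = 0.209). Without control replicate 2 the log2 fold changes were -1.23 for EIF2AK3, -1.55 for CREB3L2 and -0.60 for XBP1, with edgeR adjusted p-values of 0.197, 0.122 and 0.562. CREB3L2 also missed the threshold without control replicate 3, at an edgeR adjusted p of 0.0509.

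Of the 13 chaperones and folding enzymes, 2 fell and the median log2 fold change was -0.33. Both that fell are J-domain cochaperones of BiP, as is DNAJB11, whose groups overlapped. DNAJB9 (ERdj4), a cochaperone that restrains IRE1α, was at 86.4 and 44.1 CPM in the controls and 13.3 and 17.7 CPM in the knockdown (log2 fold change -2.07, SE 0.344, edgeR adjusted p = 0.00227). DNAJC3 (p58IPK), an inhibitor of PERK, was at 392 and 215 CPM against 102 and 124 CPM (log2 fold change -1.43, SE 0.322, edgeR adjusted p = 0.00984). Without control replicate 2 their log2 fold changes were -1.47 and -0.89, with edgeR adjusted p-values of 0.143 and 0.341. BiP itself (HSPA5) was at 5263 CPM in control replicate 2, 2497 CPM in control replicate 3, and 1974 and 2089 CPM in the knockdown. Control replicate 2 stood far above the other 3 libraries, and the log2 fold change of -0.93 (SE 0.442) missed the threshold at an edgeR adjusted p of 0.148. HSP90B1, the reticulum's HSP90 (GRP94), was also highest in control replicate 2, at 2782 CPM against 1858 CPM in control replicate 3 and 1706 and 1345 CPM in the knockdown (edgeR adjusted p = 0.292). CRELD2, a stress-induced folding factor, lay higher in both knockdown libraries, at 55.8 and 33.7 against 71.7 and 76.6 CPM (log2 fold change 0.73, SE 0.297, edgeR adjusted p = 0.0962). SDF2L1, which assists BiP, was at 66.6, 28.7, 47.8 and 151 CPM, with knockdown replicate 2 at 3.16 times replicate 1, so the groups overlapped. In knockdown replicate 2 both CRELD2 and SDF2L1 lay above both controls, whereas in knockdown replicate 1 SDF2L1 lay between the controls. The disulfide isomerases PDIA3, PDIA4 and PDIA6, the lectin chaperone CALR, the chaperones HYOU1 and DNAJB11 and the secreted factor MANF did not pass the test, with log2 fold changes from -0.60 to 0.37.

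Of the 5 amino acid genes, 1 was called lower and the median log2 fold change was 0.09. The median of the 6 effectors of the same branch was -0.82, and the difference between the roles was not tested. SLC7A11, the cystine transporter xCT, was at 22.7 and 23.3 CPM in the controls and 7.92 and 14.0 CPM in the knockdown (log2 fold change -1.07, SE 0.335, edgeR adjusted p = 0.0392). Its call was lost with no filter on low counts and in 3 of the 4 fits with 1 library left out, and it held without knockdown replicate 2. SLC3A2, the heavy chain that carries SLC7A11 to the membrane, was at 303 and 249 CPM against 298 and 682 CPM, and PHGDH, the first enzyme of serine synthesis, at 478 and 384 against 461 and 840.4 CPM. In both genes knockdown replicate 2 stood above the other 3 libraries. Without knockdown replicate 1 their log2 fold changes were 1.32 and 0.97, which rest on knockdown replicate 2 alone. Asparagine synthetase (ASNS) was at 278 and 237 against 327 and 221 CPM, and PSAT1, the next enzyme of serine synthesis, at 283 and 288 against 237 and 357 CPM, so both overlapped.

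Set against each other in the same library, the chaperones and the amino acid genes of NCI-H146 did not separate by group. The median of the 13 chaperones minus that of the 5 amino acid genes, each on log2(CPM + 0.5) relative to the gene's mean over the 4 libraries, was 0.48 and 0.02 in control replicates 2 and 3 and 0.21 and -0.69 in knockdown replicates 1 and 2. The groups overlapped, and the knockdown libraries lay further apart than the controls. Summed over their genes, the chaperones reached 14339 CPM in control replicate 2 and 8511, 8672 and 7698 CPM in the other 3 libraries. The amino acid genes summed to 1364, 1182 and 1330 CPM in the first 3 libraries and 2115 CPM in knockdown replicate 2.

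The 2 NCI-H146 controls were then set apart, since they differed in many of these genes. Of the 37 genes, 30 were higher in control replicate 2 than in control replicate 3, beside 6476 of the 13129 genes tested. The median log2 ratio was 0.56, where the median over all genes tested was -0.01. In 5 genes the ratio passed 2, against 176 of the 13129 genes tested in which it did so in either direction. The values over all genes were taken on CPM + 0.5, and those of the 37 genes without that offset. HERPUD1 was 2.34 times as high in control replicate 2 (95% interval 2.27 to 2.42, counting error only). The ratio was 2.32 for SDF2L1 (2.08 to 2.59), 2.21 for PPP1R15A (2.13 to 2.30), 2.15 for XBP1 (2.09 to 2.22) and 2.11 for HSPA5 (2.08 to 2.13). All 13 chaperones were higher in control replicate 2, with a median log2 ratio of 0.73, and the amino acid genes had a median of 0.23. ATF5, ATF6 and CREB3L2 were lower in control replicate 2, at ratios of 0.680, 0.765 and 0.880.

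**Figure D2:**
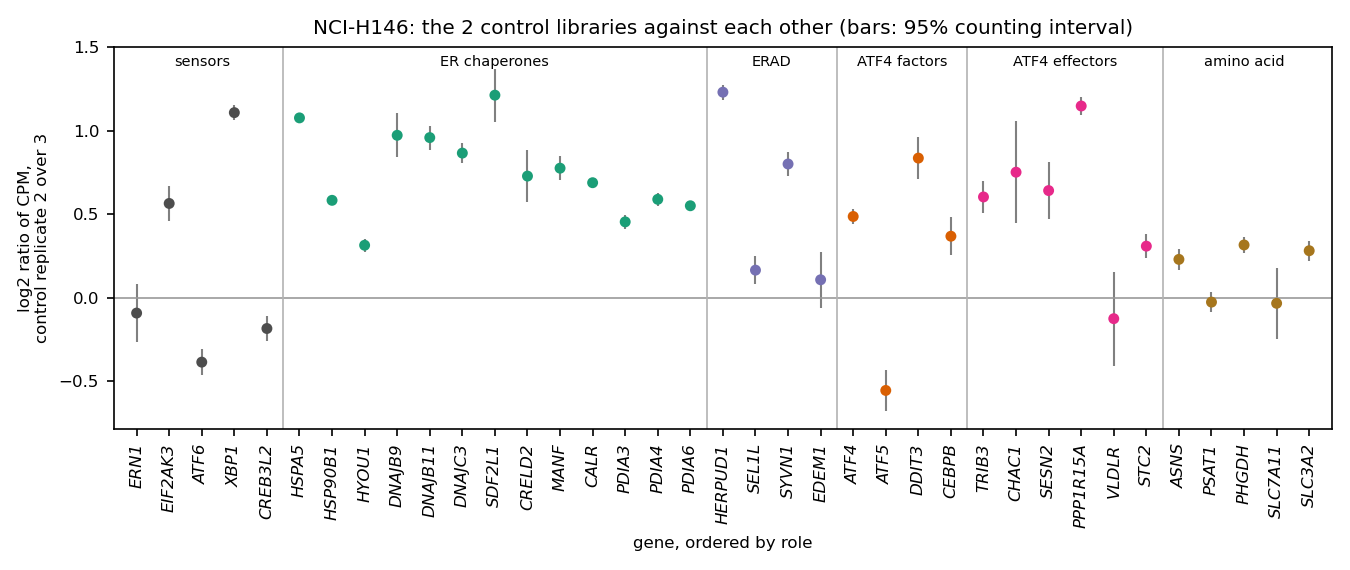
Log2 ratio of CPM between the 2 NCI-H146 control libraries (replicate 2 over replicate 3) for each of the 37 genes by role, with bars for the 95% counting interval. All 13 chaperones lie above 0, and HERPUD1, SDF2L1, PPP1R15A, XBP1 and HSPA5 lie above 1.

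The knockdown was also read against each control alone. The mean of the knockdown libraries had a median log2 ratio over the chaperones of -0.57 to control replicate 2 and -0.02 to control replicate 3. For the degradation genes the medians were -1.77 and -1.29, and for the amino acid genes 0.07 and 0.21. Single chaperones went both ways around the median against control replicate 3, from -1.51 for DNAJB9 and -0.93 for DNAJC3 to 1.14 for CRELD2 and 1.79 for SDF2L1. PPP1R15A in the knockdown was at 0.0803 of control replicate 2 and 0.178 of control replicate 3, HERPUD1 at 0.166 and 0.389, and HSPA5 at 0.386 and 0.814. The cytosolic heat shock genes, mostly chaperones and cochaperones of another compartment, moved with this split. All 12 were higher in control replicate 2, with a median log2 ratio of 1.15, and they summed to 19649 CPM there, 10004 CPM in control replicate 3 and 9758 and 6569 CPM in the knockdown. In the fit of the groups 6 of these 12 were called lower and 0 higher, where 9.12% and 8.01% of all genes were. Fibroblast markers summed to 106 and 50.05 CPM in the controls and 24.7 and 28.7 CPM in the knockdown, almost all of it COL1A1, while COL1A2 stayed under 1 CPM in every library. Leukocyte markers summed to 13.7 and 12.2 CPM in the controls, against 10.5 and 10.4 CPM in the knockdown, almost all of it PTPRC, while CD14 and LAPTM5 stayed under 1 CPM in every library. The part of the heat shock genes, COL1A1 and PTPRC in the result was not tested.

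In NCI-H1688 2 of 5 sensors, 2 of 4 degradation genes and 2 of 4 ATF4 branch factors were called higher in the libraries labelled KLF9 knockdown, 1 branch factor and 3 of 5 amino acid genes were called lower, and none of the 13 chaperones or 6 effectors was called. Of the 37 genes, 6 were called higher (16.2%) and 4 lower (10.8%) in limma at an adjusted p under 0.05, where 6.37% of the 14752 genes tested were called higher and 9.67% lower. At an unadjusted p under 0.05 there were 19, of which 6 were chaperones, beside 5012 of the 14752 genes tested. In 15 genes both labelled knockdown libraries lay above both controls (40.5%, against 28.9% of all genes), in 12 they lay below both (32.4%, against 33.8%), and in 10 the groups overlapped (62.7% of all genes had groups apart in either direction). The median log2 fold change was 0.04 over the 37 genes and -0.02 over all genes. Fold changes here are on log2(TPM + 1), which understates those of low genes. Every one of the 10 calls was lost in each of the 4 fits that leave out 1 library, where 0 to 24 of all genes were called although 3298 to 4418 had an unadjusted p under 0.05. With no filter on low values, and in limma without a trend, HERPUD1 and CEBPB were the members called. Over all genes 939 were called higher and 1427 lower, against 1135 and 1102 once mitochondrially encoded genes were dropped. The directions below are those of the labels, and KLF9 itself lay higher in the libraries labelled as its knockdown.

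**Figure D3:**
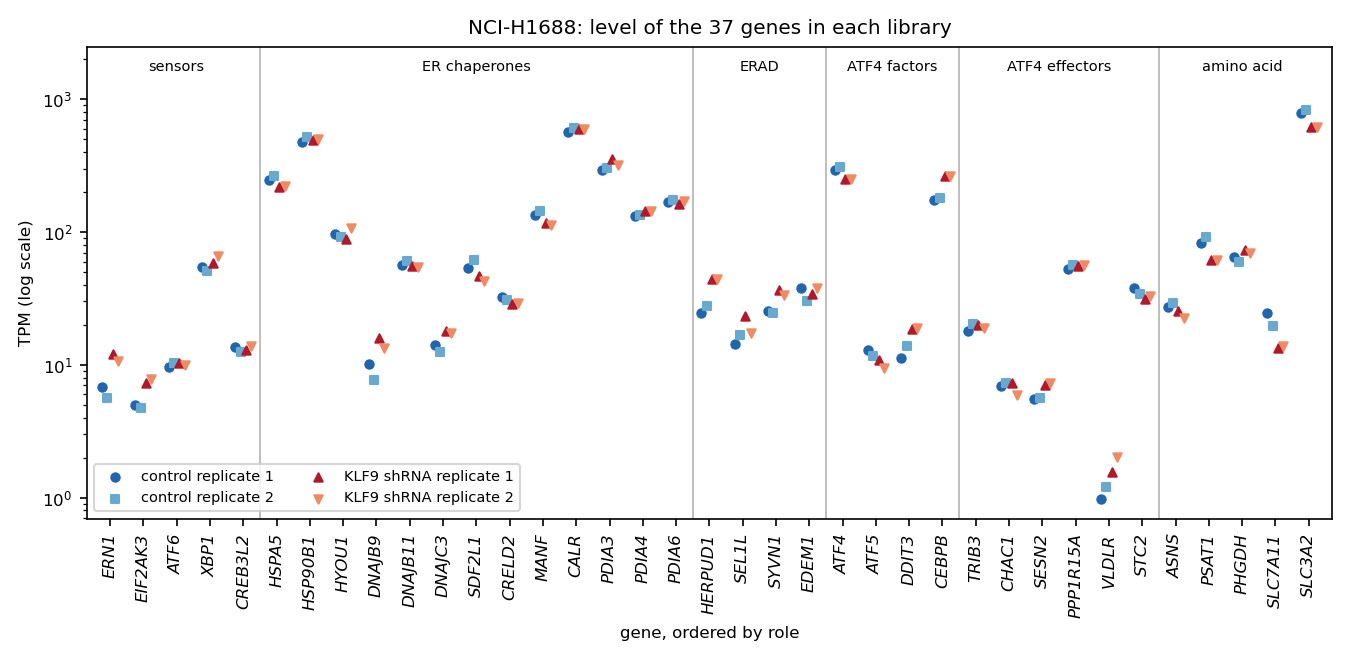
Level of each of the 37 genes in the 4 NCI-H1688 libraries, in TPM on a log axis, ordered by role. HERPUD1, SYVN1, ERN1, EIF2AK3, DDIT3 and CEBPB lie higher, and PSAT1, SLC7A11, SLC3A2 and ATF4 lower, in both libraries labelled KLF9 knockdown.

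Among the sensors ERN1 and EIF2AK3 rose in the libraries labelled KLF9 knockdown. ERN1 was at 6.84 and 5.66 TPM in the controls and 12.2 and 10.7 TPM in the labelled knockdown (log2 fold change 0.78, SE 0.133, limma adjusted p = 0.0284). EIF2AK3 was at 4.95 and 4.73 TPM against 7.35 and 7.76 TPM (log2 fold change 0.55, SE 0.111, limma adjusted p = 0.0402). XBP1 was at 54.9 and 51.3 TPM against 58.9 and 65.9 TPM and missed the threshold (limma adjusted p = 0.134), although its groups were apart. ATF6 and CREB3L2 overlapped, with log2 fold changes of 0.02 and 0.04. In the degradation pathway HERPUD1 was at 24.7 and 27.7 TPM against 44.6 and 44.1 TPM (log2 fold change 0.74, SE 0.0805, limma adjusted p = 0.0128). SYVN1 was at 25.4 and 24.5 TPM against 36.4 and 33.8 TPM (log2 fold change 0.47, SE 0.0731, limma adjusted p = 0.0234). The labelled knockdown libraries agreed closely with each other in both genes. SEL1L was at 14.4 and 16.8 against 23.3 and 17.3 TPM, apart but uncalled (limma adjusted p = 0.225), and EDEM1 overlapped. ERN1, EIF2AK3 and SYVN1 lost their calls with no filter on low values and in limma without a trend. EIF2AK3 also lost its call with genes of at least 5 TPM alone, with quantile normalization and with a replicate block. HERPUD1 kept its call under all 8 alternative settings. With 1 library left out, the limma adjusted p-values were 0.0846 to 0.180 for ERN1, 0.116 to 0.204 for EIF2AK3, 0.0666 to 0.150 for HERPUD1 and 0.0907 to 0.163 for SYVN1.

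The chaperones split into small differences of both signs around a median log2 fold change of -0.01. HSPA5 was at 246 and 265 TPM in the controls and 219.6 and 222 TPM in the labelled knockdown (log2 fold change -0.21, SE 0.0569, limma adjusted p = 0.0760). MANF was at 134 and 143 against 118 and 113 TPM (limma adjusted p = 0.0522), and SDF2L1 at 53.7 and 61.5 against 46.8 and 43.0 TPM (limma adjusted p = 0.0728). These 3 had groups apart on the low side. Of the J-domain cochaperones, DNAJB9 and DNAJC3 lay on the high side and DNAJB11 on the low side. DNAJB9 was at 10.2 and 7.75 against 15.8 and 13.3 TPM (log2 fold change 0.65, limma adjusted p = 0.0655). DNAJC3 was at 14.1 and 12.6 against 17.9 and 17.4 TPM (log2 fold change 0.38, limma adjusted p = 0.0592). With genes of at least 5 TPM alone tested, DNAJB9, DNAJC3, SDF2L1 and MANF passed the threshold, at limma adjusted p-values of 0.0387, 0.0370, 0.0458 and 0.0380. HSP90B1, CALR, HYOU1 and PDIA6 overlapped between the groups, and DNAJB11, CRELD2, PDIA3 and PDIA4 had groups apart with log2 fold changes from -0.12 to 0.18. The signs of HSP90B1, DNAJB11 and PDIA6 change with the scaling between libraries, and CALR, PDIA3 and PDIA4 were called higher after quantile normalization.

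In the ATF4 branch, DDIT3 and CEBPB rose and ATF4 fell in the libraries labelled KLF9 knockdown. CEBPB was at 175 and 180.0 TPM in the controls and 266 and 263 TPM in the labelled knockdown (log2 fold change 0.57, SE 0.0484, limma adjusted p = 0.00902), and kept its call under all 8 alternative settings. DDIT3 was at 11.3 and 13.8 against 18.7 and 18.8 TPM (log2 fold change 0.55, SE 0.116, limma adjusted p = 0.0446). ATF4 was at 291 and 310.5 against 253 and 251 TPM (log2 fold change -0.25, SE 0.0547, limma adjusted p = 0.0459). Under the 8 alternative settings DDIT3 kept its call in 5 and ATF4 in 4, and that of ATF4 was lost with quantile normalization among others. ATF4 has processed pseudogenes that could share its reads. None of the 6 effectors was called, and 1 had an unadjusted p under 0.05. PPP1R15A, the gene with the lowest fold change in NCI-H146, was at 53.0 and 56.5 against 55.7 and 56.5 TPM here, with the groups overlapping. SESN2 was at 5.53 and 5.60 against 7.10 and 7.30 TPM (log2 fold change 0.32, limma adjusted p = 0.113). With 1 library left out, the limma adjusted p-values were 0.0624 to 0.143 for CEBPB, 0.0919 to 0.225 for DDIT3 and 0.0741 to 0.242 for ATF4.

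Of the 5 amino acid genes, 3 fell in the libraries labelled KLF9 knockdown, and the median log2 fold change was -0.38. Both chains of the cystine transporter were among them. SLC3A2 was at 784 and 826 TPM in the controls and 613 and 624 TPM in the labelled knockdown (log2 fold change -0.38, SE 0.0517, limma adjusted p = 0.0189). SLC7A11 was at 24.4 and 19.5 against 13.3 and 13.9 TPM (log2 fold change -0.64, SE 0.126, limma adjusted p = 0.0385). It kept its call in 4 of the 8 alternative settings, and lost it with the mitochondrially encoded genes left out among others. PSAT1 was at 82.5 and 91.2 against 61.7 and 62.1 TPM (log2 fold change -0.48, SE 0.0703, limma adjusted p = 0.0214). All 3 had groups well apart, and PSAT1 too has processed pseudogenes. ASNS was at 27.2 and 29.2 against 25.4 and 22.5 TPM (log2 fold change -0.23, limma adjusted p = 0.165), while PHGDH lay on the other side at 64.9 and 59.6 against 72.7 and 69.1 TPM (log2 fold change 0.19, limma adjusted p = 0.147). PHGDH and PSAT1, neighbouring steps of serine synthesis, thus had fold changes of opposite sign, of which that of PSAT1 passed the test. With 1 library left out, the limma adjusted p-values were 0.0651 to 0.177 for SLC3A2, 0.0859 to 0.206 for SLC7A11 and 0.0666 to 0.169 for PSAT1.

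The chaperones and the amino acid genes of NCI-H1688 separated by group. The median of the chaperones minus that of the amino acid genes, on log2(TPM + 1) relative to each gene's mean over the 4 libraries, was -0.16 and -0.14 in the controls, against 0.17 and 0.20 in both libraries labelled KLF9 knockdown. The summed chaperone level was 2287 and 2408 TPM in the controls and 2352 and 2331 TPM in the labelled knockdown, which overlap. The summed amino acid gene level went from 983 and 1025 TPM to 786 and 791 TPM, and SLC3A2 made up most of it. With 2 libraries against 2, an exact permutation test cannot reach 0.05, so no p is given for these values.

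**Figure D4:**
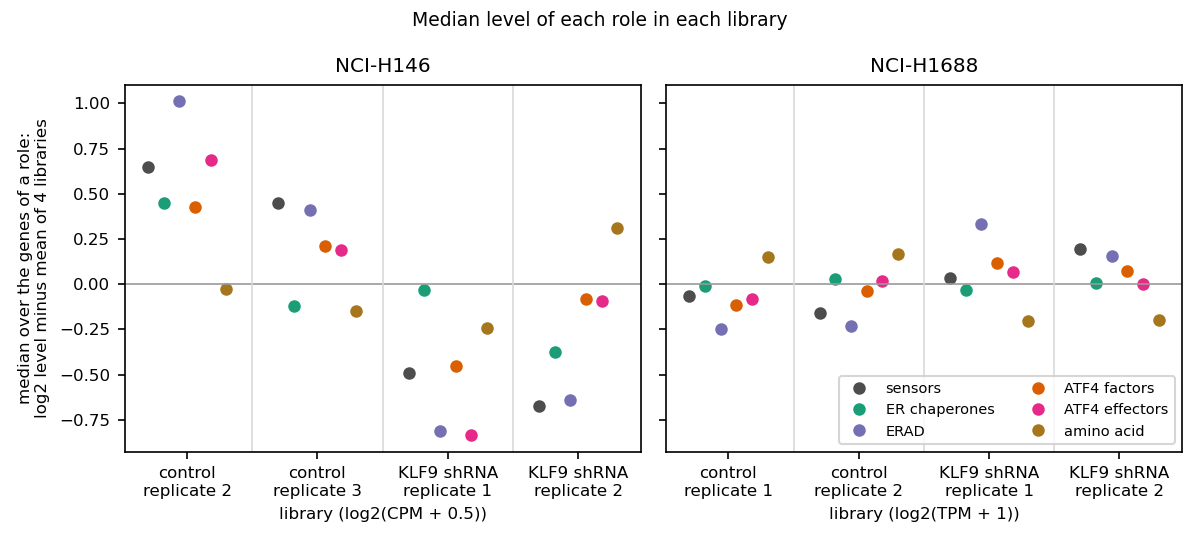
Median over the genes of each role of the log2 level minus the gene's mean over the 4 libraries, for each library of NCI-H146 (log2(CPM + 0.5)) and NCI-H1688 (log2(TPM + 1)). In NCI-H1688 the amino acid genes drop from 0.15 and 0.17 to -0.20 in both libraries labelled KLF9 knockdown while the chaperones stay within 0.03 of 0, and in NCI-H146 control replicate 2 is high for every role but the amino acid genes.

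Heat shock genes of the cytosol summed to 3974 and 4227 TPM in the NCI-H1688 controls and 3149 and 3157 TPM in those labelled KLF9 knockdown, with 3 of 12 called higher (25.0%, against 6.37% of all genes) and 4 lower (33.3%, against 9.67%). Leukocyte markers summed to 9.10 and 9.35 TPM and then 22.4 and 21.1 TPM, carried by LAPTM5 and CD14, while PTPRC and CD3E stayed under 1 TPM in every library. The epithelial markers summed to 2431 and 2519 TPM and then 1451 and 1479.6 TPM, a difference carried by KRT8 and KRT18. EPCAM overlapped at 124 and 136 against 124 and 131 TPM, and CDH1 lay higher at 54.7 and 63.2 against 81.7 and 80.8 TPM. The part of these differences in the result was not tested.

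The lines were placed side by side without a test of their difference, since units and scaling differ. EIF2AK3, HERPUD1, SYVN1 and DDIT3 were called lower in NCI-H146 and higher in the libraries labelled KLF9 knockdown of NCI-H1688, and no member was called the other way round. That is 4 of 37 genes, where 1.15% of the 11113 genes tested in both lines had this pattern and 1.84% the opposite one. SLC7A11 was called lower in both, where 0.675% of genes were called in the same direction. By groups that did not overlap, 10 of the 37 genes lay lower in NCI-H146 and higher in the labelled knockdown of NCI-H1688 (11.2% of all genes), and 1, CRELD2, the other way (15.0% of all genes). The 10 were EIF2AK3, XBP1, DNAJB9, DNAJC3, HERPUD1, SEL1L, SYVN1, DDIT3, SESN2 and VLDLR. Of the promoters shown above, those of HERPUD1 and XBP1 belong to this set of 10, that of CRELD2 to the opposite pattern, and those of HSPA5, SDF2L1 and ASNS to neither. HSP90B1, HYOU1, CALR and CHAC1, whose promoters hold an element but are not shown, also belong to neither. The other genes of the set hold none of the elements in the bases searched. PPP1R15A and CREB3L2, with log2 fold changes of -3.18 and -1.49 in NCI-H146, were at 0.04 in NCI-H1688.

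**Figure D5:**
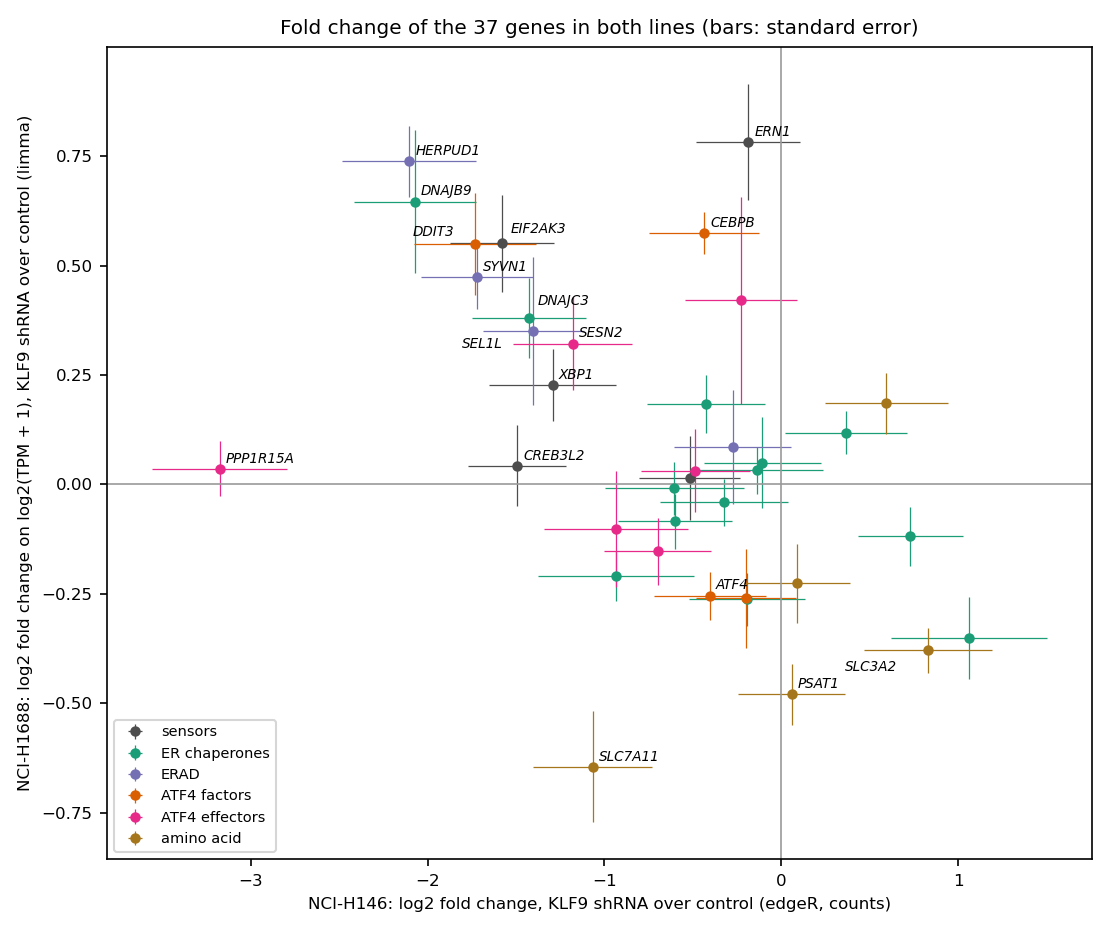
Log2 fold change of each of the 37 genes in NCI-H146 (horizontal axis, edgeR on counts) against NCI-H1688 (vertical axis, limma on log2(TPM + 1)), KLF9 shRNA over control as labelled, with bars for the standard error and colours for the role. HERPUD1, DNAJB9, DDIT3, EIF2AK3, SYVN1, DNAJC3, SEL1L, SESN2 and XBP1 lie at the upper left, PPP1R15A and CREB3L2 near 0 on the vertical axis, and SLC7A11 at the lower left.

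The members also ranked differently within the lines when levels were scaled by gene length. In the NCI-H146 controls HSPA5, HSP90B1, CALR and PDIA6 led at length-scaled levels of 3889.5, 1956, 1705 and 1186, and SLC7A11 and VLDLR were last at 9.56 and 5.80. In the NCI-H1688 controls SLC3A2 led at 805 TPM, before CALR at 586 TPM, HSP90B1 at 501 TPM and ATF4 at 301 TPM, and VLDLR was last at 1.09 TPM. EIF2AK3 and ERN1 were among the 9 lowest in both lines.

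Other known genes of the same pathways were taken from lists. Of 37 other genes of endoplasmic reticulum folding, export and degradation, 5 were called lower (13.5%, against 9.12% of all genes) and 1 higher (2.70%, against 8.01%) in NCI-H146. HSPA13, a microsomal relative of BiP, fell from 42.8 ± 7.74 to 18.5 ± 5.50 CPM (log2 fold change -1.21), and SIL1, the exchange factor of BiP, rose from 18.3 ± 2.74 to 37.4 ± 3.22 CPM (log2 fold change 1.03). In NCI-H1688 2 of 36 were called higher and 2 lower (5.56% each), which is no more than the 6.37% and 9.67% of all genes. OS9, a lectin of the degradation pathway, rose from 52.1 ± 0.929 to 72.0 ± 6.33 TPM, and SSR3, a translocon subunit, fell from 147 ± 9.55 to 85.9 ± 4.17 TPM in those libraries labelled KLF9 knockdown. Of 29 other ATF4 and amino acid response genes, 4 were called higher (13.8%) and 5 lower (17.2%) in NCI-H146, and 4 higher (13.8%) and 6 lower (20.7%) in NCI-H1688. In NCI-H146 CBS, which makes cystathionine, rose from 124 ± 27.2 to 377 ± 34.2 CPM (log2 fold change 1.60), and ATF3, a stress factor downstream of ATF4, fell from 64.4 ± 30.8 to 19.9 ± 10.2 CPM (log2 fold change -1.69). In NCI-H1688 DDIT4, an inhibitor of mTORC1, rose from 242 ± 15.7 to 542 ± 3.73 TPM (log2 fold change 1.16). PYCR1, a proline synthesis enzyme, fell there from 22.7 ± 4.28 to 13.1 ± 0.228 TPM (log2 fold change -0.74), whereas in NCI-H146 it rose from 319 ± 2.72 to 667 ± 219.5 CPM (log2 fold change 1.06). SDs are over 2 libraries, and without control replicate 2 in NCI-H146, or without any 1 library in NCI-H1688, few genes of any kind were called, as given above.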

How the data were processed

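Poly(A) RNA was sequenced from 8 libraries of 2 established lines, grouped by line and shRNA as the labels give them. STAR 2.5.1, DESeq2 and the build GRCh38 (hg38) are named in the submitters' processing notes. The counting program, the annotation and the use of strand are not given in the sources used here, so reads of antisense or overlapping genes, or of processed pseudogenes (known for HSP90B1, PDIA3, PSAT1 and ATF4), may be mixed. For NCI-H146 the authors deposited whole-number read counts for 17169 genes. For NCI-H1688 the authors deposited TPM, scaled per length and per library, in 58434 rows. The columns sum to 843186 to 885808 and not to the usual TPM total, for a reason that no label gives, and of rows that share a name (1599) the one with the highest mean was kept. Older gene names were replaced by current ones with GENCODE 29 and RefSeq, and coordinates of genes are GENCODE 29 (GRCh38).

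In R 4.3.3, edgeR 4.0.16 tested the NCI-H146 counts (filterByExpr, TMM, quasi-likelihood, 13129 genes), and limma 3.58.1 with a trend tested log2(TPM + 1) of the 14752 genes averaging 1 TPM or more, each line alone, with Benjamini-Hochberg adjustment over all genes tested and a threshold of 0.05. CPM are counts scaled by TMM totals. Alternatives were DESeq2 1.42.0, limma-voom, other scalings, filters and pseudocounts, a replicate block, and each library left out in turn. With 1 library left in a group, the fit assumes that it varies like the other group. Intervals (95%, exact) and ratios of counts cover counting error alone. On simulated data edgeR recovered 21% of genes changed by 1 and 97% of those changed by 2 on the log2 scale in NCI-H146 (9 false calls among 12995 genes), and limma 64% and 91% in NCI-H1688 (14 false calls among 14752 genes). Where the libraries of a group were not separate cultures, p-values measure technical spread alone.

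The members and all gene lists were chosen with earlier results of these data known. All members may be named, and from each list of other pathway genes up to 4 called rises and 4 called falls per line, taken by size of change among genes whose groups do not overlap. Some cell type markers are not reported here.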

Additional observations from a re-analysis of the deposited data

Results flagged for a closer look

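Several members had control and KLF9 shRNA libraries that did not overlap in either line but lay in opposite orders. Many other genes did so too. Of the 11113 genes tested in both lines, 11.2% lay lower in NCI-H146 and higher in the labelled knockdown of NCI-H1688, and 15.0% the other way. The log2 fold changes in NCI-H146 and NCI-H1688 were -1.58 and 0.55 for EIF2AK3, -1.29 and 0.23 for XBP1, -2.07 and 0.65 for DNAJB9, and -1.43 and 0.38 for DNAJC3. They were -2.10 and 0.74 for HERPUD1, -1.40 and 0.35 for SEL1L, -1.72 and 0.47 for SYVN1, and -1.73 and 0.55 for DDIT3. SESN2 had -1.18 and 0.32, VLDLR had -0.23 and 0.42, and CRELD2 had the other order at 0.73 and -0.12. The difference between the lines was not tested, since the tables differ in unit and scaling, and in NCI-H1688 KLF9 itself went against the label.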

How the results depend on the processing

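In NCI-H146, 12 members were called in DESeq2, in limma-voom, with DESeq2's size factors and with mitochondrial genes left out, and 11 with no filter. Over the 4 fits with 1 library left out the count ran from 1 to 18 and the chaperone median from -0.58 to 0.015. The median ratio of the controls, 0.56 on the log2 scale, was 0.44 with plain library totals. No paired analysis was possible because the NCI-H146 groups share 1 replicate number, and in NCI-H1688 same-numbered libraries did not deviate together (correlation -0.0051). There a replicate block gave 7 calls in place of 10: those of EIF2AK3, ATF4, DDIT3 and SLC7A11 were lost and DNAJB9 was gained. The NCI-H1688 count was 2 with no filter, 2 in limma without a trend and 0 in each fit with 1 library left out (lowest and highest 0). The NCI-H1688 chaperone median of -0.01 was 0.096 with quantile normalization, 0.063 without mitochondrial genes and -0.069 to 0.011 with 1 library left out. The amino acid median of -0.38 was -0.36 with TMM, -0.17 with quantile normalization, -0.31 without mitochondrial genes and -0.42 to -0.34 with 1 library left out.

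Signs turned in NCI-H1688 for uncalled genes: ATF6 to -0.026, DNAJB11 to 0.013, HSP90B1 to 0.096 and PDIA6 to 0.088 with quantile normalization, HSP90B1 to 0.014 with TMM, and HSP90B1 to 0.063 and PDIA6 to 0.030 without mitochondrial genes. With 1 library left out, signs also turned for uncalled genes. In NCI-H146 the log2 fold changes ran from -0.47 to 0.061 for ERN1, -0.28 to 0.098 for HYOU1, -0.57 to 0.29 for MANF, -0.44 to 0.29 for CALR, -0.58 to 0.015 for PDIA6, -0.87 to 0.16 for EDEM1, -0.41 to 0.10 for ATF5, -0.21 to 0.35 for ASNS and -0.26 to 0.34 for PSAT1. In NCI-H1688 they ran from -0.041 to 0.071 for ATF6, -0.0093 to 0.094 for CREB3L2, -0.069 to 0.052 for HSP90B1, -0.084 to 0.18 for HYOU1, -0.012 to 0.077 for CALR, -0.068 to 0.24 for EDEM1, -0.055 to 0.12 for TRIB3, -0.23 to 0.024 for CHAC1 and -0.0090 to 0.081 for PPP1R15A. No called member changed sign under any of these settings. Apart from the fits with fewer samples, the cause was not tested. With 2 libraries a group, members that missed the threshold are not shown to be unchanged. In the simulation for NCI-H146 a change of 1 on the log2 scale was recovered for 21% of genes. Far fewer genes were changed there than were called in the data, so that share need not hold for the data.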

Other observations

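Chaperones and proteases of the mitochondria, which fold imported proteins, fell in part in NCI-H1688, in the libraries labelled KLF9 knockdown, with 5 of 8 called lower (62.5%, against 9.67% of all genes) and 0 higher in limma. HSPD1, the mitochondrial HSP60, was at 734 ± 30.3 TPM in the controls and 495 ± 4.92 TPM in the labelled knockdown (SD, n = 2 each, log2 fold change -0.57), and its partner HSPE1 at 746 ± 78.0 and 505 ± 13.1 TPM (log2 fold change -0.56). In NCI-H146 1 of the 8 was called higher (12.5%, against 8.01% of all genes) and 0 lower (against 9.12%). It was the protease LONP1, another ATF4 target, at 272 ± 14.7 and 529 ± 165 CPM (log2 fold change 0.96, edgeR adjusted p = 0.0486). Aminoacyl-tRNA synthetases of the amino acid response, which load tRNAs, were called lower in 5 of 12 cases in NCI-H1688 (41.7%, against 9.67% of all genes) and 1 of 12 in NCI-H146 (8.33%, against 9.12%). TARS1, the threonyl enzyme, was called lower in both lines, at 443 ± 106 and 226 ± 37.3 CPM in NCI-H146 and 222 ± 3.56 and 172 ± 10.8 TPM in NCI-H1688.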
